A study of Mus musculus with 6 samples.

Results

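Pyruvate dehydrogenase is the mitochondrial enzyme complex that turns pyruvate into acetyl-CoA and so joins glycolysis to the TCA cycle. Here 10 of its genes were followed of the 24973 measured: Pdha1, Pdha2 and Pdhb, which encode the E1 subunits, Dlat, which encodes E2, the kinase genes Pdk1, Pdk2, Pdk3 and Pdk4, and the phosphatase genes Pdp1 and Pdp2. They were taken by gene symbol as a family chosen by the known values of this same contrast on these arrays, among them the large difference of Pdk1, so their values are given as a description and with no p-value. All 10 had 1 value on each array, and no filter on weak signal was used. The arrays were made from β-2M-SPα-6+c-kit+ differentiating spermatogonia and β-2M-SPα-6+c-kit- undifferentiated spermatogonia, named below by c-kit alone. Both came from the testes of untreated adult FVB/N mice aged 2 to 3 months. Cells with α-6 integrin were first held on magnetic beads, and the side population (SP) of Hoechst-stained cells without surface β-2 microglobulin was then sorted by c-kit. There were 3 samples of each population, each of 10000 cells from 1 mouse, and 500 pg of RNA was amplified for a Mouse Gene 2.0 ST array. The c-kit- gate is a mixed population that holds stem cells among other undifferentiated cells, and whether one mouse gave samples of both populations is not given in the sources used here.

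E1 removes carbon dioxide from pyruvate, E2 passes the acetyl group to coenzyme A, and E3, encoded by Dld, restores the lipoyl arm of E2. The kinases phosphorylate the E1 alpha subunit and switch the complex off, and the phosphatases switch it on again. Pdk1 is known in other cells as a gene induced by HIF-1, the hypoxia-inducible factor, through which pyruvate is kept from the TCA cycle under low oxygen. Pdha1 lies on the X chromosome, which is silenced in meiosis, and Pdha2 is an autosomal copy of it that is known from spermatocytes and spermatids.

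Kit parted the populations as the sort would have it, at 9.84, 9.85 and 9.69 on the c-kit+ arrays against 6.07, 6.35 and 6.03 on the c-kit- arrays (log2 values). Of 6 markers of differentiating spermatogonia 5 were higher in c-kit+ cells, and of 6 markers of undifferentiated spermatogonia all 6 were lower (adjusted p under 0.05 over all genes, limma). Markers of other cells were read too, and among these the spermatid genes gave the strongest signals. The 9 spermatid genes averaged 9.37 to 9.65 on the c-kit+ arrays and 9.27 to 9.84 on the c-kit- arrays, where array medians were 5.25 to 5.33, and none of the 9 was called. The 8 leukocyte genes averaged 6.51, 6.22 and 5.36 on c-kit+ arrays 1, 2 and 3, against 5.14 to 5.46 on the c-kit- arrays, and 2 of them were higher in c-kit+ cells. The 6 endothelial genes averaged 4.82 to 5.03 and 5.44 to 5.51, with 4 lower in c-kit+ cells. Of the 9 genes of the dissociation and stress response 8 were lower in c-kit+ cells, with means of 6.30 to 6.55 on the c-kit+ arrays and 7.76 to 7.85 on the c-kit- arrays. Of 7 pachytene genes, 2 were higher and 1 lower in c-kit+ cells (means 7.03 to 7.09 against 6.60 to 6.83), and of 5 myoid genes 1 was higher (5.18 to 5.44 against 4.86 to 4.96). None of the 8 Sertoli genes (6.21 to 6.43 against 6.11 to 6.28) or the 4 Leydig genes (3.69 to 4.18 against 3.54 to 3.79) was called. The part of any of these cells or responses in the values below was not tested. RNA per cell and the share of cells that express a gene cannot be told apart in sorted pools.

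The genes of the complex did not move as a block. Pdk1, Pdha1, Dlat and Pdha2 were lower in c-kit+ cells, Pdk2 was higher, and Pdk3, Pdk4, Pdhb, Pdp1 and Pdp2 were not called. That is 4 of 10 members called lower and 1 of 10 called higher at an adjusted p under 0.05 from limma, where 18.1% of all genes were called, 9.33% as lower in c-kit+ cells and 8.79% as higher. The c-kit+ and c-kit- arrays did not overlap for 6 of the 10, where they did not for 35.1% of all genes. Because the members were chosen with these values known, nothing is read from either count. The median log2 fold change, c-kit+ minus c-kit-, was -0.33 over the members and 0.04 over all genes.

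**Figure D1:**
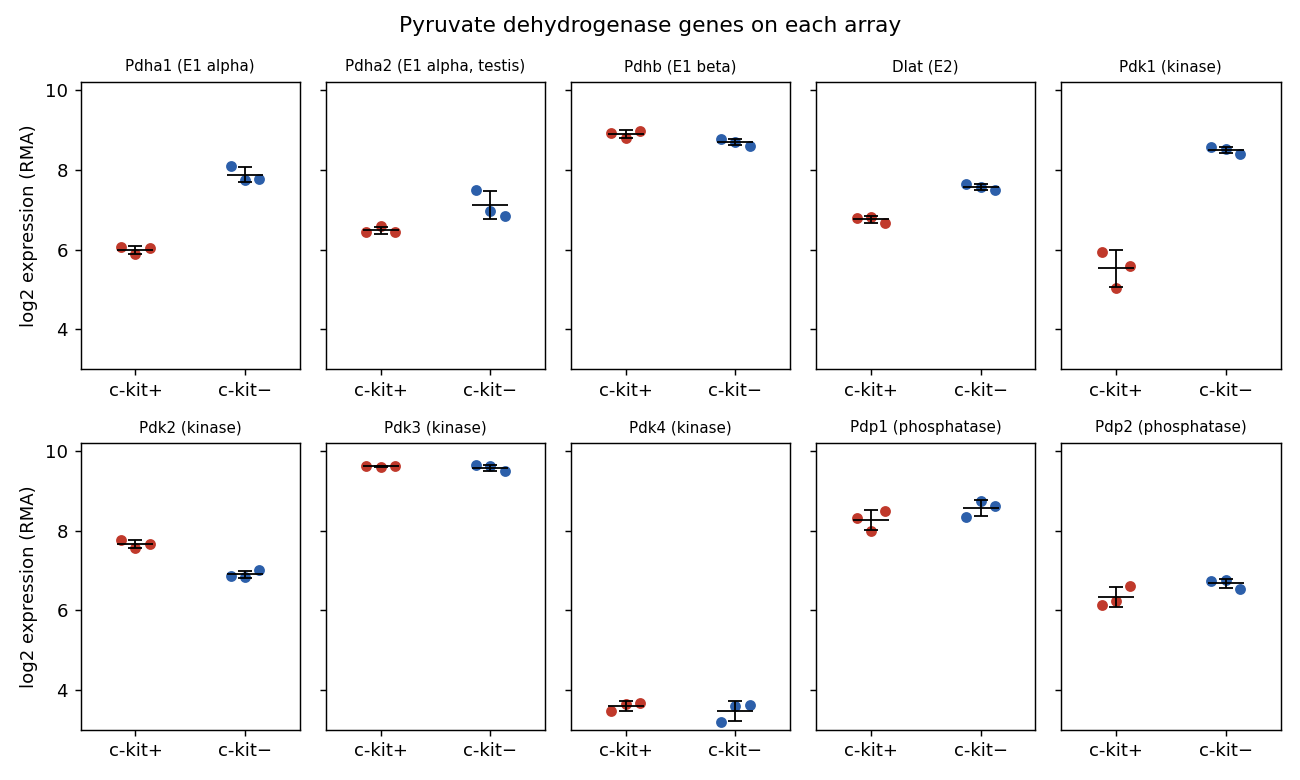
RMA log2 expression of the 10 genes on each array, with c-kit+ arrays (red, left) and c-kit- arrays (blue, right), replicates 1 to 3 from left to right, and the mean with its SD (n = 3) in black. Pdk1, Pdha1 and Dlat sit clearly lower on all c-kit+ arrays, with gaps of 2.46, 1.69 and 0.68 between the nearest arrays, while Pdk3 overlaps.

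Pdha1, the X-linked gene of the somatic E1 alpha subunit and the target of the kinases, was at 6.06, 5.88 and 6.04 on the c-kit+ arrays and at 8.10, 7.75 and 7.78 on the c-kit- arrays (log2 values). No c-kit+ array came within 1.69 of a c-kit- array. The c-kit+ values stood above 61.3%, 58.6% and 60.7% of all genes on arrays 1, 2 and 3. Without detection calls, how far they stand above no signal is not known, which leaves the size of the fold uncertain. The means were 5.99 ± 0.10 and 7.88 ± 0.19 (SD, n = 3 each), a log2 fold change of -1.89 (standard error 0.13), or 3.70-fold lower in c-kit+ cells. Left out one at a time, no array moved this value beyond -1.95 to -1.78. Of the 1005 X-linked genes, 9.45% were called lower in c-kit+ cells and 10.1% higher, and the other X-linked member, Pdk3, had a log2 fold change of 0.03.

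Pdha2, the autosomal testis copy, was also lower in c-kit+ cells, but by less. It was at 6.45, 6.58 and 6.43 on the c-kit+ arrays and at 7.51, 6.97 and 6.85 on the c-kit- arrays. The c-kit+ arrays were close together and all lay below the c-kit- arrays, of which replicate 1 stood highest. The means were 6.49 ± 0.09 and 7.11 ± 0.35 (SD, n = 3 each), and the log2 fold change was -0.62 (standard error 0.17). The call was lost without any one of the 3 c-kit+ arrays or without c-kit- replicate 2 (log2 fold changes -0.69 to -0.59 in those fits), and also with the per-gene test of the methods and with a further quantile normalization. Without c-kit- replicate 1 the log2 fold change was -0.42, and Pdha2 was still called. Spermatids are a known source of Pdha2, and their genes averaged 9.58, 9.27 and 9.84 on c-kit- replicates 1, 2 and 3, and their part in the values of Pdha2 was not tested.

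Pdhb, the gene of the E1 beta subunit that pairs with either E1 alpha, was at 8.92, 8.81 and 8.98 on the c-kit+ arrays and at 8.76, 8.70 and 8.61 on the c-kit- arrays. It was not called. The c-kit+ arrays lay just above the c-kit- arrays, with a gap of 0.04 between the nearest, and the log2 fold change was 0.21 (standard error 0.11).

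Dlat, which encodes the E2 core of the complex, was at 6.80, 6.82 and 6.66 on the c-kit+ arrays and at 7.65, 7.58 and 7.50 on the c-kit- arrays. The arrays of one population differed by at most 0.16, and the populations were at least 0.68 apart. The log2 fold change was -0.81 (standard error 0.11), or 1.75-fold lower in c-kit+ cells, and it stayed between -0.85 and -0.76 when any one array was left out.

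Among the kinases, Pdk1 had the largest difference of the 10 genes. It was at 5.94, 5.04 and 5.59 on the c-kit+ arrays and at 8.58, 8.52 and 8.41 on the c-kit- arrays. The c-kit- arrays agreed within 0.17, the c-kit+ arrays spread over 0.90, and the nearest arrays of the populations were 2.46 apart. The c-kit+ values of Pdk1 lay near the medians of their arrays (5.25, 5.33 and 5.29), and below it on replicate 2. Without detection calls, a weak signal could not be told from none there, which leaves the size of the fold uncertain. The means were 5.52 ± 0.46 and 8.50 ± 0.09 (SD, n = 3 each), a log2 fold change of -2.98 (standard error 0.21), or 7.87-fold lower in c-kit+ cells. By size of the log2 fold change it stood at place 23 of 24973 genes. It ranged from -3.19 to -2.73 with any one array left out.

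Pdk2, which encodes the kinase that is widespread in mouse tissues, was higher in c-kit+ cells. It was at 7.76, 7.57 and 7.66 on the c-kit+ arrays and at 6.86, 6.83 and 7.01 on the c-kit- arrays. The arrays of each population lay within 0.19 of each other and the populations at least 0.55 apart. The log2 fold change was 0.76 (standard error 0.11), or 1.70-fold higher in c-kit+ cells. Arrays 1 and 2 of the c-kit+ cells had the higher leukocyte values, and with c-kit+ array 3 as the only c-kit+ array, a setting chosen after the data were seen, the log2 fold changes were -2.91 for Pdk1, -1.84 for Pdha1, -0.91 for Dlat, -0.68 for Pdha2 and 0.76 for Pdk2. In that fit the spread came from the c-kit- arrays alone and the single c-kit+ array was assumed to vary like them, so the calls of Pdk2 and Pdha2 that it lost say nothing about leukocytes or about smaller differences.

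Pdk3, the X-linked kinase gene, was at 9.62, 9.61 and 9.62 on the c-kit+ arrays and at 9.64, 9.61 and 9.49 on the c-kit- arrays. The populations overlapped, and the log2 fold change was 0.03 (standard error 0.10). Pdk4, the kinase gene that fasting and fatty acids induce in muscle and liver, was at 3.46, 3.65 and 3.68 on the c-kit+ arrays and at 3.19, 3.61 and 3.63 on the c-kit- arrays. Its values were below every array's median, the populations overlapped, and the log2 fold change was 0.12 (standard error 0.15). The table gives no detection calls, so a weak signal could not be told from none.

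The genes of the 2 phosphatase catalytic subunits were not called. Pdp1, whose enzyme responds to calcium in muscle, was at 8.31, 8.00 and 8.49 on the c-kit+ arrays and at 8.35, 8.74 and 8.62 on the c-kit- arrays, with a log2 fold change of -0.31 (standard error 0.16). Pdp2 was at 6.12, 6.24 and 6.60 on the c-kit+ arrays and at 6.74, 6.75 and 6.53 on the c-kit- arrays, with a log2 fold change of -0.35 (standard error 0.15). In both genes c-kit+ replicate 3 reached into the range of the c-kit- arrays. With that array alone the differences were -0.08 for Pdp1 and -0.07 for Pdp2.

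**Figure D2:**
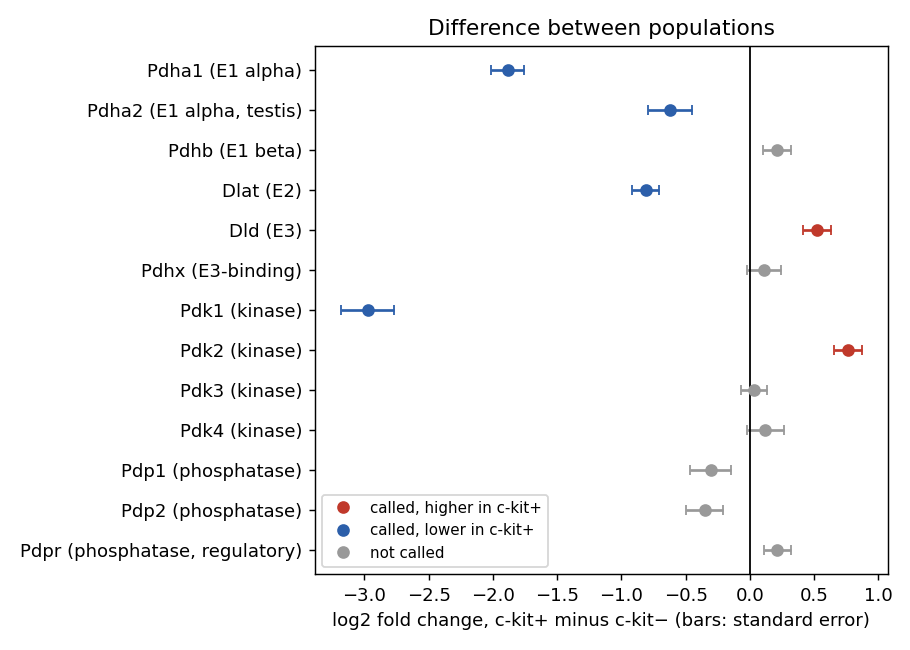
Log2 fold change, c-kit+ minus c-kit-, with its standard error (3 arrays per population), of the 10 genes and of Dld, Pdhx and Pdpr, ordered by role and coloured by the call at an adjusted p under 0.05. The kinase genes part in sign, from -2.98 for Pdk1 to 0.76 for Pdk2, and among the subunits Pdha1 (-1.89) and Dld (0.52) lie furthest apart.

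The 5 genes whose profile over the 6 arrays lay nearest to that of Pdk1, by Euclidean distance between log2 values centred per gene, were Pygl (distance 0.52), Dgkk (0.54), Pip4k2a (0.55), Hspa1a (0.60) and Ccdc141 (0.61). Pygl encodes the liver form of glycogen phosphorylase and was at 5.91, 5.38 and 5.84 on the c-kit+ arrays, against 8.40, 8.94 and 8.56 on the c-kit- arrays. Hspa1a is one of the stress response genes above. Their log2 fold changes lay between -3.44 and -2.86, a direction and size that the choice by likeness to Pdk1 fixed.

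The sequences before the start site are shown for the 5 called members, because HIF-1 is known to bind the short core RCGTG, searched here as ACGTG and GCGTG on both strands. They are the 250 bases upstream of the annotated start (RefSeq, GRCm38.p6), written 5′ to 3′ on the strand of the gene, with each match in capitals. Windows were found for 9 of the 10 members, and where a gene had several starts the first listed is shown.
Pdk1, chr2:71872974-71873223, plus strand: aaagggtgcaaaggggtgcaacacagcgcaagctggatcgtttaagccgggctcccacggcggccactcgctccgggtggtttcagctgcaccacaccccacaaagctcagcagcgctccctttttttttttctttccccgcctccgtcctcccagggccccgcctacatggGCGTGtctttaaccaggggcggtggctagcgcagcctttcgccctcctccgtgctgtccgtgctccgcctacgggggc
Pdha1, chrX:160138431-160138680, minus strand: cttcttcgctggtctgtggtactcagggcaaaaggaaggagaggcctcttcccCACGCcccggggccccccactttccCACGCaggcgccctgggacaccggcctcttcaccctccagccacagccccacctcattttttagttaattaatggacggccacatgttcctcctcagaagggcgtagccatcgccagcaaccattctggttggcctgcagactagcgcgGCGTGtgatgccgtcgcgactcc
Dlat, chr9:50659781-50660030, minus strand: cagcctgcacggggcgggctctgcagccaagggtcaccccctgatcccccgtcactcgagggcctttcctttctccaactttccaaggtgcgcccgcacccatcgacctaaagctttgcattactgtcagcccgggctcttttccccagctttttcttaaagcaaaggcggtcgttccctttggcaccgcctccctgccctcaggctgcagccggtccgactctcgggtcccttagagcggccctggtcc
Pdha2, chr3:141212356-141212605, minus strand: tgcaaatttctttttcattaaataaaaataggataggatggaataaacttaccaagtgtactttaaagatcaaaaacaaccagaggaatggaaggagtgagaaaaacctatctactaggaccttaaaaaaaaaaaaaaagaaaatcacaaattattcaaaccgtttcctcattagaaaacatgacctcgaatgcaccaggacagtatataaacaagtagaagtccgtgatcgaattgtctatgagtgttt
Pdk2, chr11:95041372-95041621, minus strand: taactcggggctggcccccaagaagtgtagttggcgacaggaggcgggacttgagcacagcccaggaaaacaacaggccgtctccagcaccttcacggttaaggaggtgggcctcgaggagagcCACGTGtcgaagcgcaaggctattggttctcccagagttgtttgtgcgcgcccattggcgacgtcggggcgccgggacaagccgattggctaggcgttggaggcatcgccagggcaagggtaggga
The Pdk1 window held 1 match, GCGTG, which begins 78 bases before the start. The Pdha1 window held 3, all GCGTG on one strand or the other, beginning 197, 172 and 23 bases before the start. The Pdk2 window held 1 CACGTG, which reads ACGTG on both strands. Neither the Dlat nor the Pdha2 window held a match. Either core was present in 38.6% of all 32851 windows of this length, ACGTG in 16.6% and GCGTG in 28.2%. The windows of members that were not called held matches too. That of Pdk3, with a log2 fold change of 0.03, held 4 matches. That of Pdhb held 1 ACGTG and 1 GCGTG, that of Pdk4 1 GCGTG and that of Pdp2 1 ACGTG. Pdp1 had no window. The Pdha2 window had 31.6% GC and 4 CpG, against 61.6% and 15 for Pdha1 and medians of 52.4% and 6 over all windows. Pdk1 and Pdk2 each had a second start, whose windows held no match, with 38.4% GC and 2 CpG for Pdk1 and 58.8% and 12 for Pdk2.

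Of the rest of the complex and the genes that build its cofactors, 1 of 9 was called, against 18.1% of all genes. Dld, the gene of E3, which is shared with the other 2-oxoacid dehydrogenases, rose in c-kit+ cells. It was at 9.12, 8.90 and 9.03 on the c-kit+ arrays and at 8.42, 8.50 and 8.55 on the c-kit- arrays, a log2 fold change of 0.52 (standard error 0.11, adjusted p = 0.0112 from limma), with no overlap. Pdhx, the gene of the E3-binding protein, had a log2 fold change of 0.11 (adjusted p = 0.650 from limma), and Pdpr, the regulatory subunit of the phosphatase, of 0.21 (adjusted p = 0.211). The genes of lipoic acid synthesis and transfer were not called, with 0.40 for Lipt2, 0.05 for Nfu1, -0.22 for Lias and -0.26 for Lipt1. Slc19a2 and Slc19a3, which encode transporters of thiamine, the precursor of the E1 cofactor, were not called either, with 0.35 for Slc19a2 and 0.12 for Slc19a3. Lipt2 was called with genes above the median alone, and Slc19a2 in that fit, with a further quantile normalization and with array weights. The median of the 9 was 0.12.

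Of 19 genes that bring pyruvate to the complex or draw it off, 5 were called lower in c-kit+ cells, 2 higher and 12 neither way, with a median log2 fold change of -0.001. The shares over all genes were 9.33% lower and 8.79% higher. Emb, an escort of monocarboxylate transporters, was at 6.79, 6.34 and 6.46 on the c-kit+ arrays and at 8.08, 7.89 and 7.88 on the c-kit- arrays, with no overlap. It fell by 1.42 on the log2 scale (standard error 0.14, adjusted p = 3.79e-04 from limma). Bsg, the other escort of these transporters, rose by 0.84 (adjusted p = 0.00244), at 10.54, 10.67 and 10.57 on the c-kit+ arrays and at 9.62, 9.97 and 9.68 on the c-kit- arrays. Pkm, the pyruvate kinase gene, was at 8.79, 8.98 and 9.02 on the c-kit+ arrays and at 10.01, 10.02 and 9.83 on the c-kit- arrays, a fall of 1.02 (adjusted p = 6.76e-04). Mpc2, a subunit of the carrier that takes pyruvate into the mitochondrion, fell by 0.73 (adjusted p = 0.00183), and Gpt2, which interconverts pyruvate and alanine, by 0.85 (adjusted p = 0.00211). On the c-kit+ arrays Gpt2 lay below the array medians, at 4.93, 4.71 and 4.92. A weak signal could not be told from none there. Mpc1, the partner of Mpc2, was not analysed here. Pcx, pyruvate carboxylase, which takes pyruvate to oxaloacetate instead, rose by 0.59 (adjusted p = 0.0168). Its call was lost without c-kit+ replicate 1, c-kit+ replicate 2 or c-kit- replicate 3 (adjusted p = 0.0560 to 0.0637 from limma).

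Of 19 genes listed for the TCA cycle, which takes up the acetyl-CoA, 3 were called lower in c-kit+ cells and 2 higher. The other 14 were called neither way, and the median was 0.05. The shares over all genes were 9.33% lower and 8.79% higher. Among the 3 called lower is Mdh1, whose cytosolic enzyme is outside the cycle proper. Its mitochondrial counterpart Mdh2 was not called (log2 fold change -0.27, adjusted p = 0.200 from limma). Suclg1, the shared subunit of succinyl-CoA ligase, fell by 0.94 (adjusted p = 0.00124 from limma), at 7.66, 7.78 and 7.55 on the c-kit+ arrays and at 8.58, 8.75 and 8.47 on the c-kit- arrays. Dlst, the E2 gene of 2-oxoglutarate dehydrogenase, fell by 0.92 (adjusted p = 5.63e-04), and Dlat, the E2 gene of pyruvate dehydrogenase, by 0.81. Ogdh, the E1 gene of 2-oxoglutarate dehydrogenase, rose by 0.51 (adjusted p = 0.0377), Suclg2 rose by 0.67 (adjusted p = 0.0263) and Mdh1, the cytosolic malate dehydrogenase, fell by 0.42 (adjusted p = 0.0339). These last 3 lost their calls in 5 of the 6 fits with one array less (limma, adjusted p = 0.0607 to 0.127), the exception being c-kit- replicate 2 for Ogdh and Suclg2 and c-kit- replicate 1 for Mdh1. Mdh1 was also not called with the replicate number as a block. Of 9 genes of the branched-chain and glycine enzymes, which are built like pyruvate dehydrogenase or share its parts, 2 were lower and 1 higher. Bckdhb, an E1 gene, fell by 0.73 (adjusted p = 0.00402), and Bckdk, the kinase that switches that complex off, rose by 0.60 (adjusted p = 0.00455), at 7.85, 7.92 and 7.96 on the c-kit+ arrays and at 7.27, 7.29 and 7.39 on the c-kit- arrays. Gldc fell by 0.59 (adjusted p = 0.0399) and lost its call without any one array other than c-kit+ replicate 3 (adjusted p = 0.0545 to 0.107).

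**Figure D3:**
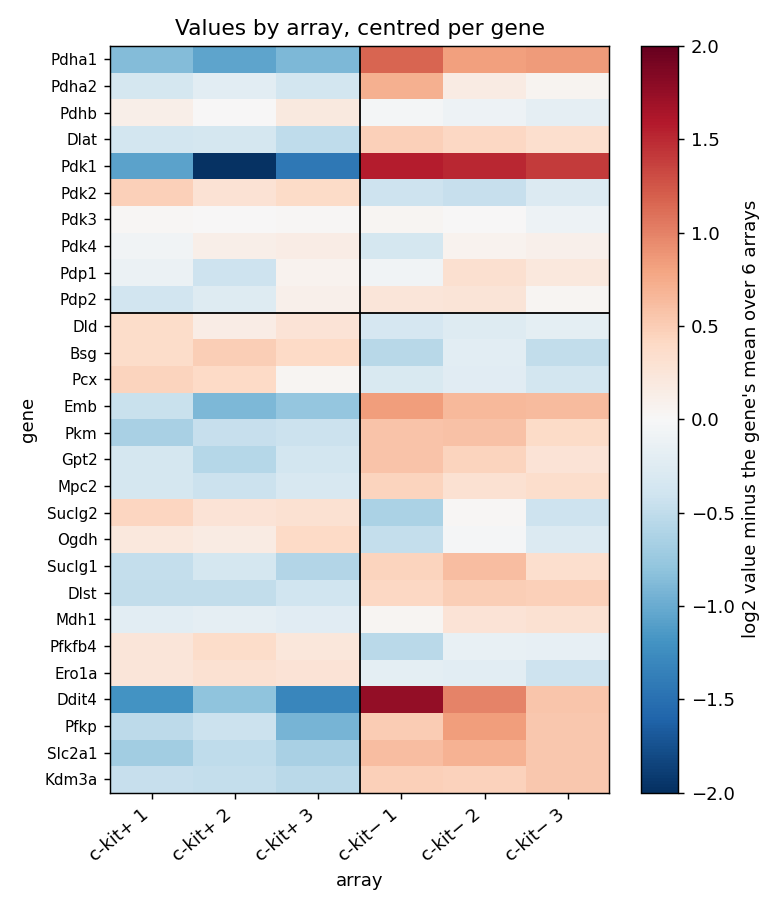
Log2 value minus the gene's own mean over the 6 arrays (colour; red higher, blue lower) for the 10 genes, above the line, and for Dld and the named genes of pyruvate supply, the TCA cycle and the hypoxia list, below it, by array with c-kit+ on the left. Pdk1 and Ddit4 show the strongest colours, and of the 10 genes Pdk1 varies most within a population, on the c-kit+ arrays (SD 0.46).

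Of 23 genes listed as regulators of the kinase genes, or as acting on such regulators, 5 were lower in c-kit+ cells and 4 higher. The other 14 were not called, and the median was -0.13. The shares over all genes were 9.33% lower and 8.79% higher. Epas1, which encodes HIF-2α, was at 5.58, 5.87 and 6.10 on the c-kit+ arrays and at 7.10, 7.37 and 7.38 on the c-kit- arrays. It fell by 1.43 (standard error 0.16, adjusted p = 5.88e-04 from limma). Hif1a, which encodes HIF-1α, was at 8.45, 8.48 and 8.24 on the c-kit+ arrays and at 8.64, 8.47 and 8.45 on the c-kit- arrays. The populations overlapped for Hif1a, which was not called, with a log2 fold change of -0.13 (standard error 0.12). Foxo1, a factor known to induce Pdk4 in muscle and liver, was at 8.36, 8.43 and 8.49 against 9.16, 9.37 and 9.18, a fall of 0.81 (adjusted p = 0.00152), and Foxo3 fell by 0.77 (adjusted p = 0.00889), a call lost with the per-gene test of the methods. Pparg, a nuclear receptor of fat cells, rose by 1.07 (adjusted p = 0.00144), at 5.80, 5.74 and 5.40 on the c-kit+ arrays and at 4.50, 4.74 and 4.50 on the c-kit- arrays. Its c-kit- values lay below the array medians, where a weak signal could not be told from none. Hif3a fell by 0.71 (adjusted p = 0.0190), Arnt, the partner of the HIF alpha subunits, rose by 0.59 (adjusted p = 0.0383), and Vhl, which marks HIF alpha for destruction, rose by 0.44 (adjusted p = 0.0338). Hif3a was weak, at 4.31, 4.46 and 4.54 on the c-kit+ arrays, below their medians. It was at 4.78, 5.32 and 5.33 on the c-kit- arrays. Nr3c1, the glucocorticoid receptor, rose by 0.45 (adjusted p = 0.0296). The calls of Hif3a, Arnt, Vhl and Nr3c1 were lost without any one of 4, 4, 5 and 5 of the 6 arrays (adjusted p = 0.0507 to 0.105 from limma). The arrays whose loss kept the call were c-kit+ replicate 3 and c-kit- replicate 1 for Hif3a, c-kit- replicates 1 and 3 for Arnt, c-kit- replicate 1 for Vhl and c-kit+ replicate 3 for Nr3c1.

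Of 29 other genes known to be induced by hypoxia, 8 were lower in c-kit+ cells and 2 were higher. The other 19 were not called, and the median was -0.14. Over all genes, 9.33% were called lower and 8.79% higher. Ddit4, an inhibitor of mTORC1 that also answers to other stresses, was at 5.23, 5.62 and 5.11 on the c-kit+ arrays and at 8.18, 7.41 and 6.98 on the c-kit- arrays, a fall of 2.20 (standard error 0.28, adjusted p = 0.00130 from limma). Its c-kit+ values lay near the medians of their arrays (5.25, 5.33 and 5.29), and below them on replicates 1 and 3. A weak signal could not be told from none there, which leaves the size of the fall uncertain. Pfkp, a phosphofructokinase gene, fell by 1.26 (adjusted p = 0.00125), the glucose transporter gene Slc2a1 by 1.23 (adjusted p = 2.16e-04) and the histone demethylase gene Kdm3a by 0.98 (adjusted p = 3.83e-04). Pfkp too lay near the medians on the c-kit+ arrays, at 5.65, 5.75 and 5.24. Slc2a1 was at 7.77, 7.96 and 7.83 on the c-kit+ arrays and at 9.09, 9.16 and 9.00 on the c-kit- arrays. Ero1a, which helps form disulfide bonds, rose by 0.55 (adjusted p = 0.00843), and Pfkfb4, which sets the level of an activator of glycolysis, by 0.56 (adjusted p = 0.0199), a call lost without any one of the 3 c-kit+ arrays (adjusted p = 0.0532 to 0.0723). Pfkfb4 was at 4.94, 5.07 and 4.93 on the c-kit+ arrays and at 4.16, 4.55 and 4.53 on the c-kit- arrays. These values were below every array's median, so a weak signal could not be told from none. Gapdh was not analysed here. The dissociation and stress genes were lower in c-kit+ cells along with these, 8 of 9, and their part was not tested.

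Pdha2 is one of several germ cell isoenzymes of energy metabolism, and of 12 others 1 was called, against 18.1% of all genes. Cyct, the testis form of cytochrome c, was at 8.73, 8.57 and 8.52 on the c-kit+ arrays and at 9.51, 9.44 and 9.33 on the c-kit- arrays, a fall of 0.82 (standard error 0.11, adjusted p = 0.00157 from limma). The other 11, among them Pgk2, Ldhc and Gapdhs, were not called, and the list had a median of 0.01.

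**Figure D4:**
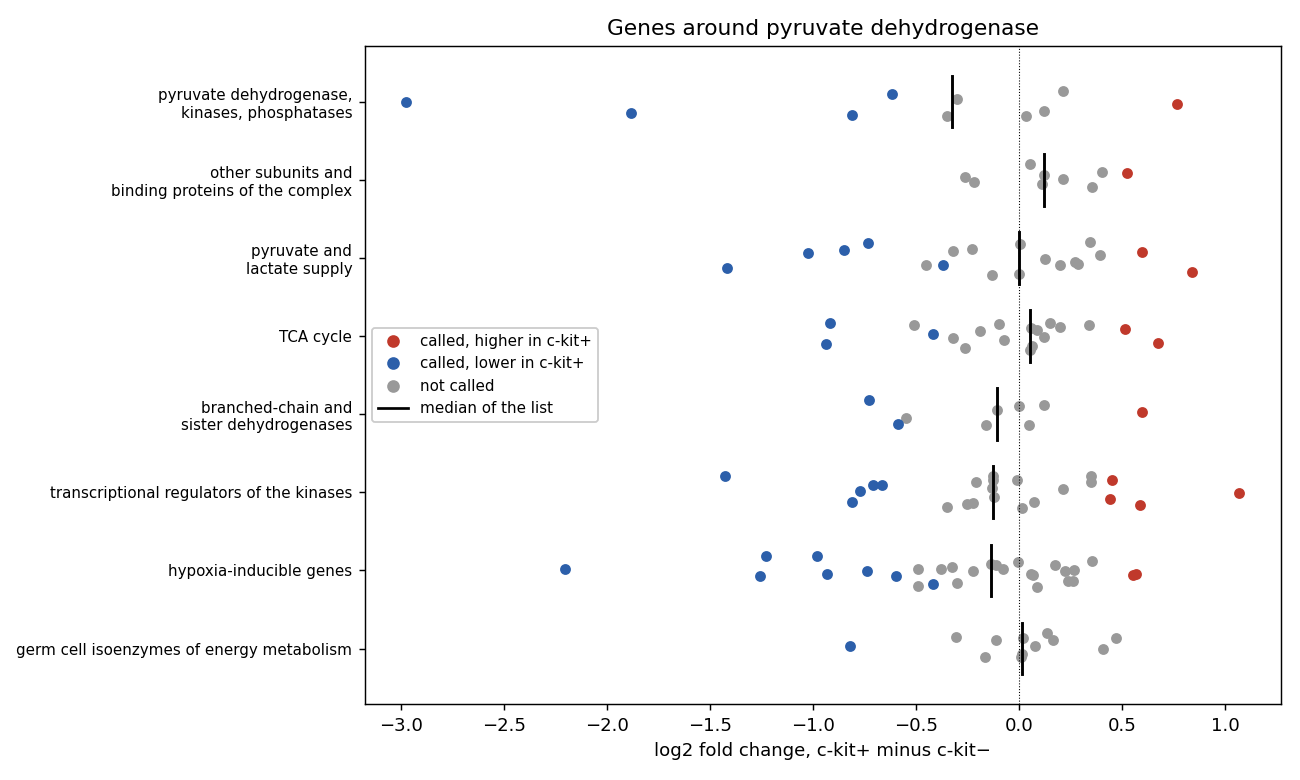
Log2 fold change, c-kit+ minus c-kit-, of every gene (point) of the 10 members and of 7 lists of related genes, coloured by the call at an adjusted p under 0.05, with the median of each list as a black bar; points are spread vertically only to be seen. The medians of the 7 lists lie between -0.14 and 0.12, near the 0.04 of all genes, while their single genes reach -2.20 and 1.07.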

How the data were processed

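The deposited log2 values were used as given. Per the labels and the study's methods, the values were made by the authors with RMA (robust multi-array average: background correction, quantile normalization and a summary of the probes per gene); the version and probe set definition are not given in the sources used here. The table has 1 value per gene ID for 24973 genes and 6 arrays, without missing values. Names came from a gene table of GRCm38.p6 (24481 genes) and the platform table (93). All genes were fitted with limma 3.58.1 in R 4.3.3 (lmFit, eBayes), c-kit+ minus c-kit-, and a gene was called at a Benjamini-Hochberg adjusted p under 0.05 over all genes. The study's methods name a per-gene analysis of variance, which was run as an alternative. The number of arrays limits the precision. The fit was tested on simulated data. The members, gene lists and tests were chosen with earlier results of these data known. Some genes of these lists are not reported here and are left out of the counts. Named are all members, every other listed gene of the complex and its cofactors, up to 4 called genes per list and direction, the 5 genes nearest to Pdk1, and Kit. Hif1a and Mdh2 were named in addition, after the data were seen. Correlations between arrays, with values of 1 set aside, were 0.962 to 0.992. The Kit values above differed on all 6 arrays, so none of the arrays were identical. Motifs were searched in upstream sequences from RefSeq. Alternatives were other scalings, a filter on low values, other variance settings, the replicate number as a block, and each array left out.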

Additional observations from a re-analysis of the deposited data

How the results depend on the processing

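Of the members, Pdk1, Pdha1, Dlat, Pdhb, Pdp1 and Pdp2 kept their direction and their side of the threshold in all 15 alternatives. Members called lower in c-kit+ cells numbered 3 or 4 throughout and members called higher 1, or 0 with c-kit+ array 3 alone, a setting chosen after the data were seen. With one array left out, the log2 fold change ran from -0.012 to 0.060 for Pdk3 (negative without c-kit- replicate 3), from -0.024 to 0.20 for Pdk4 (negative without c-kit- replicate 1) and from -0.024 to 0.10 for Nfu1 (negative without c-kit- replicate 3), and none of them was called in any fit. The per-gene test of the methods called 1205 genes higher and 1307 lower in c-kit+ cells, against 2196 and 2331, and 5 of the list genes higher, against 12. Besides that of Pdha2, it lost the calls of Pcx, Suclg2, Ogdh, Mdh1, Gldc, Arnt, Nr3c1, Vhl, Foxo3, Hif3a and Pfkfb4 among the named genes. With c-kit+ array 3 alone, 239 genes were higher and 527 lower, and of the list genes 0 and 6, with fewer samples in the fit and the spread taken from the c-kit- arrays alone. Leaving out one array gave 1478 to 1889 genes higher and 1727 to 2195 lower, 1 member higher and 3 to 4 lower, and 5 to 9 list genes higher and 17 to 26 lower. Deviations of same-numbered arrays correlated at 0.100, 0.097 and 0.137, and all 6 arrays correlated best with their own number; as the labels do not tie the numbers to mice, this is only a hint. With the replicate number as a block 2163 genes were higher and 2350 lower, 1 member was higher and 4 lower, and of the list genes 12 and 24. With 3 arrays per population and no detection calls, differences of weak genes such as Pdk4 could not be resolved.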
